A study of Homo sapiens with 15 samples.

Results

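The 7 genes described here encode the CDK inhibitor proteins of the CIP/KIP family (CDKN1A, CDKN1B and CDKN1C) and of the INK4 family (CDKN2A, CDKN2B, CDKN2C and CDKN2D). They were chosen by gene symbol, as the rows of the deposited count table that carry these 7 names, out of 58676 genes in the table. All 7 passed the filter on low counts, so each is among the 14461 genes tested.

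Cyclin-dependent kinases drive the cell cycle once they are bound by a cyclin, and these inhibitors hold them back. Proteins of the CIP/KIP family (p21, p27 and p57) bind cyclin-CDK complexes of several kinds, with CDK2 complexes as the best known targets, and the INK4 proteins (p16, p15, p18 and p19) bind CDK4 and CDK6 and keep D-type cyclins away from them. Loss of p16 is a frequent event in pancreatic cancer. CDK7 is the kinase that activates other CDKs and, as part of TFIIH, phosphorylates RNA polymerase II.

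The cells were PATU-8988T, an established line from a human pancreatic cancer, and total RNA was sequenced in 15 libraries, 3 in each of 5 groups. One group received 0.1% DMSO, and the others received THZ1 at 100 nM for 4 h, THZ1 at 100 nM for 24 h, YKL-5-124 at 100 nM for 4 h or YKL-5-124 at 100 nM for 24 h. The series describes both compounds as inhibitors of CDK7, and THZ1 is a covalent inhibitor that is also known to act on CDK12 and CDK13. No time is given for DMSO, whose 3 libraries served as control at 4 h and at 24 h, and the labels do not say whether replicates are separate cultures. All groups are 1 cell line, so the p-values given measure only the spread between these libraries.

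Depth ranged from 15567057 to 22869590 counts per library, and the lowest count of any of the 7 genes in a library was 17, for CDKN2B after 4 h of THZ1. The make-up of the THZ1 24 h libraries stood apart. Ribosomal protein mRNAs took 20.8% to 23.1% of their counts against 6.52% to 14.9% in the other 12 libraries, and their TMM scaling factors were 0.532 to 0.559 against 0.970 to 1.38. Of 9 markers of pancreatic ductal and carcinoma epithelium, 5 (KRT7, KRT8, KRT18, EPCAM and CDH1) passed the filter, with a summed level of 1353 to 1640 CPM in DMSO and 2727 to 3557 CPM after 24 h of THZ1. KRT19, MUC1, CLDN4 and ELF3 did not pass. None of 4 acinar, 4 islet and 4 immune markers passed, with PRSS1, CPA1, INS, GCG, SST and CD3E at 0 counts in all libraries, while COL1A1 and COL3A1 among 5 stromal markers and CDH5 among 3 endothelial ones passed at summed levels of at most 8.68 CPM. These are bulk RNA measurements, in which a change in RNA per cell and a change in the share of cells that carry a transcript cannot be told apart.

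Levels are given as CPM, counts over the TMM-scaled library total, and changes as log2 differences ± a standard error. That error was derived from edgeR's quasi-likelihood F test, as the absolute log2 difference over the square root of F. The 95% intervals were built from it. A gene was called higher or lower where the p adjusted over the 14461 genes was below 0.05. TMM takes most genes as its reference. Scaling on plain library totals instead moved the median of all genes by -1.13 on the log2 scale after 24 h of THZ1, and scaling on ribosomal protein mRNAs moved it by -2.18. The ribosomal protein reference also moved it by -0.51 after 4 h of THZ1 and by 0.59 after 24 h of YKL-5-124, where library totals moved it by 0.15. Directions after 24 h of THZ1 that turn under these 2 scalings are named beside each gene. Counts of genes called on library totals or on the ribosomal protein reference move with this shift of all genes, and are not results about a list alone. The closing section gives, for both, the share of the calls over all genes that were higher.

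Promoter windows of 250 bases before the start of transcription were read from RefSeq (GRCh38.p14) for 6 of the 7 genes, with 9 starts in all. 4 genes are shown because the results below turn on them: CDKN1A and CDKN2C, which followed each other across the libraries, and CDKN2A and CDKN2D, which were highest after 24 h of THZ1. CDKN1B is added as the gene with the deepest early loss. Both starts of CDKN2A are shown, since the upstream one (the window at higher coordinates) gives the ARF transcript and the downstream one gives p16. Sequences run 5′ to 3′ on the strand of the gene, and capitals mark GC boxes (GGGCGG or its reverse complement CCGCCC, overlapping matches counted apart) and CCAAT boxes (CCAAT or ATTGG).
CDKN1A promoter, plus strand, chr6:36678464-36678713: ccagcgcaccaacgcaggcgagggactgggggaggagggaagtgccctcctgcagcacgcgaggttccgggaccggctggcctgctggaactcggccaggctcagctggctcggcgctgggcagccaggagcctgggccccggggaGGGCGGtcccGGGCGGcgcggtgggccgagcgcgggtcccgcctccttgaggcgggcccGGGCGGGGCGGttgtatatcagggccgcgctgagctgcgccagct
CDKN1B promoter, plus strand, chr12:12717118-12717367: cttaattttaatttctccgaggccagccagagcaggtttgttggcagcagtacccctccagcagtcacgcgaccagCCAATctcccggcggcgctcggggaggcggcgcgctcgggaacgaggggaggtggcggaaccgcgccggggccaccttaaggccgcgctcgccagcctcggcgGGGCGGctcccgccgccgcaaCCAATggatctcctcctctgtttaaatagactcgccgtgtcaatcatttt
CDKN2A promoter of the ARF start, minus strand, chr9:21995325-21995574: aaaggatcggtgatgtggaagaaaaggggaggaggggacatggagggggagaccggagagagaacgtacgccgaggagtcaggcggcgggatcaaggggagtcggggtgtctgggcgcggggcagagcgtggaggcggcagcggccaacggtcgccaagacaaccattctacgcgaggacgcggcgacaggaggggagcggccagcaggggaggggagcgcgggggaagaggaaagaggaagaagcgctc
CDKN2A promoter of the p16 start, minus strand, chr9:21974858-21975107: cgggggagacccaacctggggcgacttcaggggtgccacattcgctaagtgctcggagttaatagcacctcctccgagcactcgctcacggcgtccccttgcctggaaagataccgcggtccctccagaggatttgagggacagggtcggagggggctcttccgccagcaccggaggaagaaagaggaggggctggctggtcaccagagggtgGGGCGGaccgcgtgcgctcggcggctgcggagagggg
CDKN2C promoter of the second of its 3 starts, plus strand, chr1:50968456-50968705: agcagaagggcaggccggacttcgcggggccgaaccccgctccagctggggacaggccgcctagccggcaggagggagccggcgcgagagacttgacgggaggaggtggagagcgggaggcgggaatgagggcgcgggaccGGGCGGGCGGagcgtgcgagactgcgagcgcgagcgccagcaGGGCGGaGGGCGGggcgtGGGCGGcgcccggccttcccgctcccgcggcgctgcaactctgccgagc
CDKN2D promoter, minus strand, chr19:10568980-10569229: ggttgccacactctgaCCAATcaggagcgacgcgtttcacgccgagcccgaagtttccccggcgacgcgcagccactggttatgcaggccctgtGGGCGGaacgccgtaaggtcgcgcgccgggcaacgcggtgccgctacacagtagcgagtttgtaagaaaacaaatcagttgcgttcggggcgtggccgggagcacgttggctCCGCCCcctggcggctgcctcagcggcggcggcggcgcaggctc

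The CDKN1A window held 4 GC boxes, the CDKN2C window shown held 5, CDKN2D held 2, and CDKN1B and the p16 start of CDKN2A held 1 each. The window of the ARF start held 0. CCAAT boxes were found in CDKN1B (2) and CDKN2D (1) and in none of the other windows shown. At least 1 GC box stood in 42.6% of the 35116 RefSeq promoter windows of this length, and at least 1 CCAAT box in 32.0%, so neither motif is rare. The windows shown were 64.4% (CDKN1B) to 77.2% (CDKN2C) G and C, against a median of 58% over all windows. The windows of the CDKN2C starts not shown both lay below that median. The upstream start was 45.6% G and C with 0 GC boxes. The downstream start was 48.8% G and C, with 1 GC box and 1 CCAAT box. The CDKN2B window, also not shown, was 66.4% G and C and held 2 GC boxes. Which CDKN2C start was in use was not tested. These matches describe the letters only.

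In the CIP/KIP family, CDKN1A rose with late YKL-5-124, CDKN1B fell sharply and came back with THZ1, and CDKN1C rose at 24 h with both compounds under TMM scaling. CDKN1A encodes p21, a broad CDK inhibitor and a textbook target of p53. It lies at chr6:36676460-36687339 on the plus strand (GRCh38), with 3050 exonic bases. Its level was 49.5, 30.5 and 46.3 CPM in the DMSO libraries. After YKL-5-124 it was 65.3, 40.4 and 52.2 CPM at 4 h and 164, 162 and 138 CPM at 24 h. The 24 h libraries all lay far above DMSO, while the 4 h libraries overlapped it. The rise at 24 h was 1.88 ± 0.21 on the log2 scale (adjusted p = 2.92e-05), or 3.67-fold with a 95% interval of 2.69 to 5.02, and only 1.73% of genes had a higher log2 difference. At 4 h the difference of 0.32 ± 0.21 did not pass (adjusted p = 0.707).

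CDKN1A was not higher after THZ1. Its level was 44.5, 38.2 and 35.8 CPM after 4 h and 32.6, 20.9 and 23 CPM after 24 h. At 4 h the libraries lay inside the DMSO range, with a difference of -0.09 ± 0.21 (adjusted p = 0.753), which was called only on the ribosomal protein reference (-0.58, adjusted p = 0.00828). At 24 h the gene was called lower, at -0.73 ± 0.21 (adjusted p = 0.00601), but the first THZ1 library stood above the second DMSO library. That call ended under 2 other scalings, at -0.41 with RLE factors (adjusted p = 0.104) and -0.33 with upper-quartile factors (adjusted p = 0.162). DESeq2, whose size factors are of the RLE kind, also gave -0.41 (adjusted p = 0.104).

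CDKN1B encodes p27, which binds and blocks cyclin E-CDK2 and is controlled largely through its destruction by the SKP2 ubiquitin ligase. It lies at chr12:12715058-12722371 on the plus strand, with 2811 exonic bases. DMSO libraries held 49.7, 41.4 and 51.1 CPM. After 4 h of THZ1 they held 8.64, 7.0 and 6.38 CPM, and after 24 h 71.1, 71.1 and 73.3 CPM. The THZ1 groups thus lay on opposite sides of DMSO, with no overlap at either time. The early fall was -2.69 ± 0.16 (adjusted p = 5.38e-09), 6.45-fold lower, and only 3.57% of genes had a lower log2 difference. From 4 h to 24 h the transcript rose 9.78-fold (95% interval 7.71 to 12.4, adjusted p = 1.81e-10). Its late level was above DMSO by 0.60 ± 0.14 (adjusted p = 0.00142) under TMM, but below it with library totals (-0.52) and with the ribosomal protein reference (-1.57).

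With YKL-5-124, CDKN1B stood at 44.0, 39.6 and 34.4 CPM after 4 h and 75.3, 70.5 and 55.1 CPM after 24 h. The 4 h libraries overlapped DMSO, with a difference of -0.27 ± 0.14 (adjusted p = 0.606). The 24 h libraries all lay above DMSO, and the gene rose by 0.50 ± 0.14 (adjusted p = 0.0215). This small rise was no longer called without the second DMSO library (0.41, adjusted p = 0.0715), without the first 24 h library (0.41, adjusted p = 0.0998) or without the second (0.46, adjusted p = 0.0777).

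CDKN1C encodes p57, the product of an imprinted gene and the least abundant CIP/KIP transcript per length here. It lies at chr11:2883213-2885881 on the minus strand, with 2586 exonic bases. Its DMSO level was 2.89, 2.01 and 2.99 CPM, from 52 to 71 counts per library. After 4 h it was 4.08, 1.91 and 2.19 CPM with THZ1 and 3.02, 2.25 and 2.69 CPM with YKL-5-124, so both groups overlapped DMSO. After 24 h it was 9.18, 10.2 and 9.60 CPM with THZ1 and 12.9, 13.2 and 9.47 CPM with YKL-5-124, and all 6 libraries lay above all 9 others. The 24 h rise was 1.88 ± 0.27 with THZ1 (adjusted p = 1.05e-05) under TMM, but the difference was -0.27 with the ribosomal protein reference. With YKL-5-124 it was 2.17 ± 0.26 (adjusted p = 5.19e-05), 4.51-fold, and only 1.09% of genes had a higher difference.

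**Figure D1:**
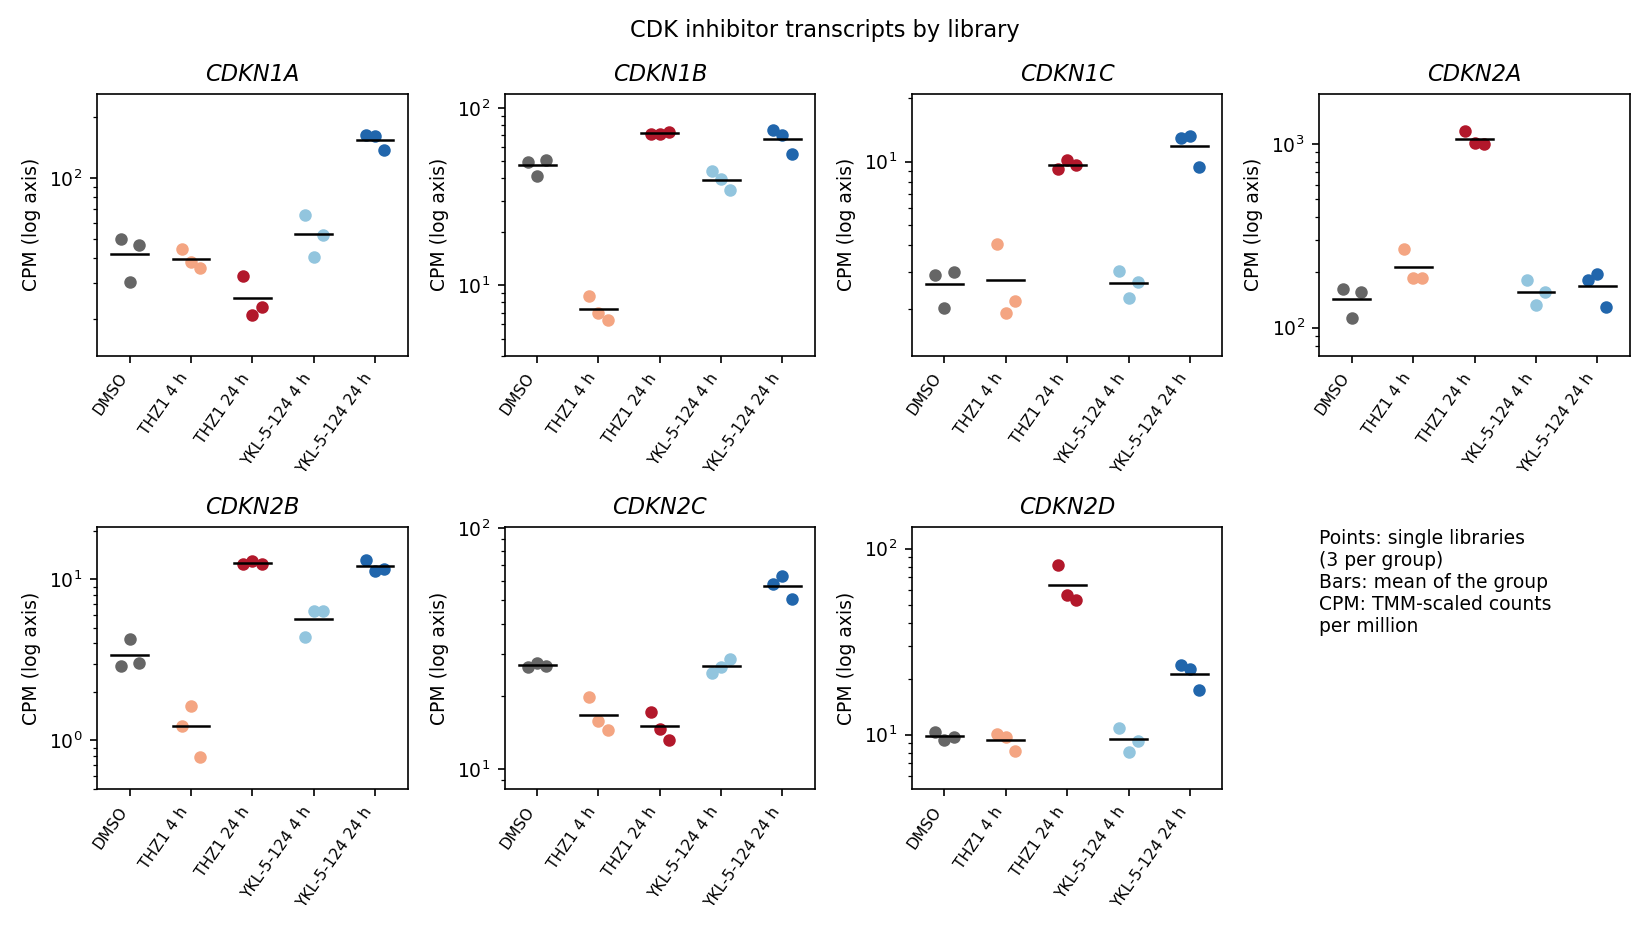
Level of each of the 7 genes in each of the 15 libraries, as TMM-scaled CPM on a log axis that differs between panels. Points are single libraries, 3 per group, and bars are group means. CDKN1B fell to 6.38 to 8.64 CPM after 4 h of THZ1, CDKN2A reached 992 to 1174 CPM after 24 h of THZ1, and CDKN1A reached 138 to 164 CPM after 24 h of YKL-5-124.

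In the INK4 family, CDKN2A and CDKN2D were raised most by late THZ1, CDKN2B fell and then rose with THZ1, and CDKN2C moved in opposite directions with the 2 compounds. CDKN2A encodes p16 and, from its upstream start and another reading frame, ARF, which stabilises p53. Gene-level counts do not separate the 2 products. The gene lies at chr9:21967753-21995301 on the minus strand, with 4329 exonic bases. Its DMSO level was 162, 112 and 156 CPM. THZ1 gave 267, 185 and 187 CPM after 4 h and 1174, 1007 and 992 CPM after 24 h. Every THZ1 library lay above every DMSO library, and the late group stood clear of all others. The late rise was 2.88 ± 0.20 (adjusted p = 3.61e-09), 7.37-fold with an interval of 5.47 to 9.94, and 3.72% of genes had a higher difference. It kept its direction under the 4 other scalings and in DESeq2, with a lowest value of 0.72 on the ribosomal protein reference.

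The early CDKN2A rise with THZ1 was small, at 0.57 ± 0.19 (adjusted p = 0.0245), and rested on single libraries. It was no longer called without the second DMSO library (0.42, adjusted p = 0.10), the lowest of its group, or without the first THZ1 4 h library (0.38, adjusted p = 0.0941), the highest. It was also not called on library totals (0.32, adjusted p = 0.149) or on the ribosomal protein reference (0.06, adjusted p = 0.681). These 2 libraries were also those furthest from their group in the slope of expression on transcript length, at 0.0780 and -0.103. With that slope as a covariate the call held. The slope was taken from the same counts and centred within groups. It could therefore change the spread but hardly a group difference, so it does not test for a length bias. YKL-5-124 gave 183, 132 and 156 CPM after 4 h and 182, 196 and 130 CPM after 24 h. Both groups overlapped DMSO. The late difference of 0.24 ± 0.19 did not pass (adjusted p = 0.413), with a 95% interval of -0.16 to 0.64, and it was called with the slope covariate (0.24, adjusted p = 0.00741) and on the ribosomal protein reference (0.82, adjusted p = 3.12e-05).

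CDKN2B encodes p15, a CDK4 and CDK6 inhibitor induced by TGF-beta in many epithelial cells. It lies next to CDKN2A, at chr9:22002903-22009363 on the minus strand, with 4058 exonic bases. Its DMSO level was 2.89, 4.26 and 3.03 CPM. THZ1 gave 1.23, 1.64 and 0.791 CPM after 4 h and 12.4, 13.0 and 12.5 CPM after 24 h. The early group lay wholly below DMSO and the late group wholly above it. The early fall was -1.48 ± 0.25 (adjusted p = 2.54e-04), 2.79-fold lower. Between the times the transcript rose 10.4-fold (interval 7.11 to 15.1, adjusted p = 1.57e-08). The late level was above DMSO by 1.89 ± 0.23 (adjusted p = 1.89e-06) under TMM, but the difference was -0.33 with the ribosomal protein reference.

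YKL-5-124 gave 4.41, 6.38 and 6.34 CPM of CDKN2B after 4 h and 13.2, 11.3 and 11.6 CPM after 24 h. The 4 h libraries all lay above DMSO, but the difference of 0.75 ± 0.22 did not pass (adjusted p = 0.185 by edgeR). DESeq2 called it (0.74, adjusted p = 0.0212), as did the fit with the transcript length slope as a covariate (0.75, adjusted p = 0.0162). At 24 h the gene was higher by 1.83 ± 0.22 (adjusted p = 6.29e-05), 3.55-fold, with 1.87% of genes above it. The antisense transcript CDKN2B-AS1 overlaps both CDKN2A and CDKN2B and had 3 to 26 counts per library. That equals 3.15% to 38.5% of the CDKN2B counts, highest in the first THZ1 4 h library, and 0.0406% to 0.586% of the CDKN2A counts. No strand setting is stated in the sources used here, so it is not known whether reads of overlapping genes on opposite strands were kept apart.

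CDKN2C encodes p18, an INK4 inhibitor active in many dividing and differentiating tissues. It lies at chr1:50960745-50974633 on the plus strand, with 3318 exonic bases. DMSO libraries agreed closely at 26.4, 27.5 and 26.8 CPM. With THZ1 the level was 19.9, 15.8 and 14.6 CPM after 4 h and 17.3, 14.7 and 13.1 CPM after 24 h, wholly below DMSO at both times. With YKL-5-124 it was 25.1, 26.4 and 28.5 CPM after 4 h, across the DMSO range, and 58.7, 63.1 and 50.5 CPM after 24 h, wholly above it. With THZ1 the difference was -0.68 ± 0.14 at 4 h (adjusted p = 0.00101) and -0.84 ± 0.14 at 24 h (adjusted p = 6.32e-05). With YKL-5-124 it was 1.09 ± 0.14 at 24 h (adjusted p = 6.85e-05), 2.14-fold. All of these kept their direction and their call under the 4 other scalings, in DESeq2 and without any single library.

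CDKN2D encodes p19, the INK4 member that varies through the cell cycle. It lies at chr19:10566462-10569059 on the minus strand, with 1503 exonic bases. Its DMSO level was 10.4, 9.36 and 9.69 CPM. After 4 h it was 10.1, 9.76 and 8.19 CPM with THZ1 and 10.9, 8.12 and 9.29 CPM with YKL-5-124, and both groups overlapped DMSO. The ribosomal protein reference was the 1 setting of those tried under which the early THZ1 difference was called, as lower (-0.59, adjusted p = 0.0175). After 24 h it was 81.6, 56.2 and 52.8 CPM with THZ1 and 23.8, 22.6 and 17.4 CPM with YKL-5-124. Both late groups lay wholly above DMSO, and the THZ1 group wholly above the YKL-5-124 group. The rise was 2.69 ± 0.19 with THZ1 (adjusted p = 3.18e-09), 6.47-fold, and 1.11 ± 0.18 with YKL-5-124 (adjusted p = 5.43e-04), 2.17-fold. The THZ1 rise was 0.50 on the ribosomal protein reference, the lowest of the 4 other scalings and DESeq2.

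Counted together, 4 of the 7 genes changed after 4 h of THZ1, 1 higher and 3 lower. Of all genes tested, 42.0% were called there, 16.9% higher and 25.1% lower. The ribosomal protein reference gave 5 lower and none higher, and library totals 3 lower and none higher. The median of all genes moved by -0.51 and -0.26 under these 2 scalings. At 24 h of THZ1 all 7 were called, 5 higher and 2 lower, where 76.2% of all genes were called, 32.3% higher and 44.0% lower. On the ribosomal protein reference the 7 split into 2 higher, 3 lower and 2 not called at that time, and on library totals into 4 higher and 3 lower. These 2 scalings moved the median of all genes by -2.18 and -1.13 there. The median difference of the 7 was 1.88 under TMM against -0.37 over all genes. With 4 h of YKL-5-124 edgeR called 0 of 7, where 0.519% of all genes were called (0.0553% higher, 0.463% lower). CDKN2B was the 1 of 7 at an unadjusted p under 0.05 in that fit and the 1 of 7 called by DESeq2. With 24 h of YKL-5-124, 6 of 7 were higher and none lower, where 21.6% of all genes were called, 8.92% higher and 12.7% lower. Their median difference was 1.11 against -0.04 over all genes, and the exception was CDKN2A. Beside these backgrounds the THZ1 counts say little about the 7 genes as a set.

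**Figure D2:**
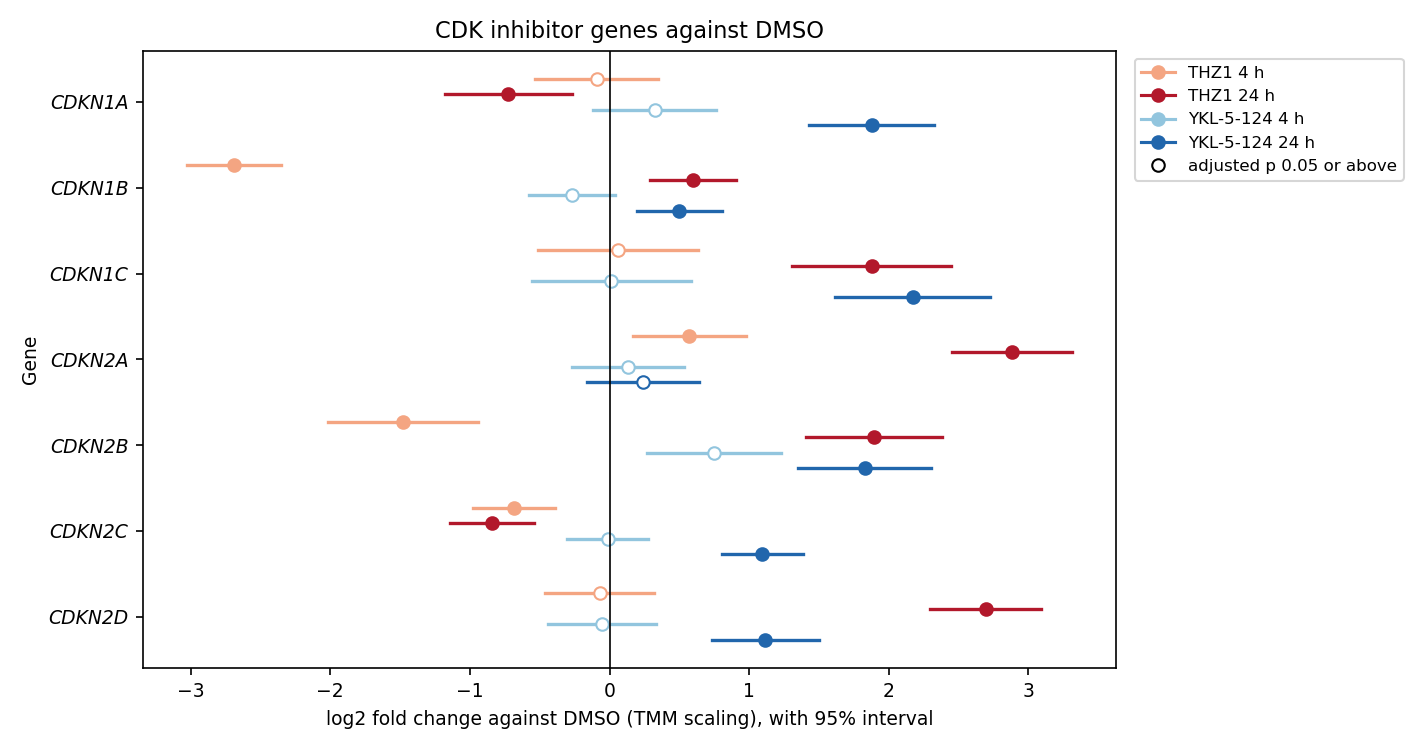
Difference of each gene from DMSO in the 4 treated groups, as log2 fold change under TMM scaling, with 95% intervals derived from the edgeR F test. Filled points have an adjusted p below 0.05. CDKN1B and CDKN2B lay below DMSO after 4 h of THZ1 and above it after 24 h, and CDKN1A and CDKN2C lay on opposite sides of DMSO after 24 h of the 2 compounds.

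The compounds were compared directly at 100 nM and at matched times, with 7 genes at each of 2 times and p-values adjusted over all genes tested. At 4 h, 3 of 7 were lower with THZ1, where 33.3% of all genes were called, 11.4% higher and 21.9% lower. CDKN1B was 5.36-fold lower with THZ1 than with YKL-5-124 (adjusted p = 2.03e-08). CDKN2B was 4.68-fold lower (adjusted p = 5.15e-06) and CDKN2C 1.59-fold lower (adjusted p = 0.00157), with no overlap between the groups for any of the 3. The other 4 were not called. CDKN2A was the nearest to it, at 0.44 ± 0.19 (adjusted p = 0.0871), with all THZ1 libraries above all YKL-5-124 libraries. CDKN1A differed by -0.41 ± 0.21 (adjusted p = 0.137). Each of these 2 was called under 5 other settings, among them no filter on low counts (adjusted p = 0.0107 for CDKN2A and 0.0435 for CDKN1A).

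At 24 h, 4 of 7 differed between the compounds (2 higher and 2 lower with THZ1), where 75.9% of all genes were called, 31.8% higher and 44.1% lower. CDKN1A was 6.07-fold lower with THZ1 (adjusted p = 3.31e-08) and CDKN2C 3.82-fold lower (adjusted p = 7.17e-09), and both stayed lower under the 4 other scalings and in DESeq2. CDKN2A was 6.25-fold higher with THZ1 (adjusted p = 8.88e-09) and CDKN2D 2.99-fold higher (adjusted p = 8.69e-07) under TMM, but on the ribosomal protein reference the differences were -0.10 and -1.18, and 6 of the 7 genes were called lower with THZ1 and none higher. That reference moved the median of all genes by -2.765 in this comparison. On library totals the CDKN2D difference of 0.30 was not called (adjusted p = 0.101).

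The other 3 genes were not called between the compounds at 24 h. The difference of CDKN1C was -0.29 with a 95% interval of -0.82 to 0.24, that of CDKN2B was 0.07 with an interval of -0.39 to 0.53, and that of CDKN1B was 0.10 with an interval of -0.20 to 0.41. These intervals leave room for changes of up to 1.33-fold in CDKN1B and 1.44-fold in CDKN2B toward THZ1. The scaling decides these 3. On library totals CDKN1B, CDKN2B and CDKN1C were called lower with THZ1 (-1.17, -1.21 and -1.57 on the log2 scale), and CDKN1B was called higher with THZ1 with RLE factors (0.42, adjusted p = 0.0197), upper-quartile factors (0.40, adjusted p = 0.0145) and DESeq2 (0.42, adjusted p = 0.0132).

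Over time, 5 genes rose and 1 fell between 4 h and 24 h of THZ1, where 67.1% of all genes were called, 31.4% higher and 35.7% lower. CDKN1B, CDKN2B and CDKN2D rose most (9.78-fold, 10.4-fold and 6.79-fold), followed by CDKN2A (4.96-fold) and CDKN1C (3.53-fold). Under TMM these rises were 3.29, 3.37, 2.76, 2.31 and 1.82 on the log2 scale for CDKN1B, CDKN2B, CDKN2D, CDKN2A and CDKN1C. They were smaller on library totals (2.42, 2.50, 1.89, 1.44 and 0.96) and on the ribosomal protein reference (1.64, 1.70, 1.08, 0.66 and 0.21), where that of CDKN1C was not called (adjusted p = 0.303). The exception was CDKN2C, which was low at both times (-0.16 ± 0.14, adjusted p = 0.339) and was called lower at 24 h than at 4 h on library totals (-1.03) and on the ribosomal protein reference (-1.82). The fall of CDKN1A (-0.63 ± 0.21, adjusted p = 0.0158) was not called with RLE or upper-quartile factors or DESeq2, nor without the first THZ1 4 h library (-0.52, adjusted p = 0.0511), the second THZ1 24 h library (-0.48, adjusted p = 0.0739) or the third (-0.54, adjusted p = 0.0584). Between 4 h and 24 h of YKL-5-124, 6 genes rose and none fell, where 21.1% of all genes were called, 9.22% higher and 11.9% lower. These rises ran from 1.70-fold for CDKN1B to 4.46-fold for CDKN1C. CDKN2A differed by 0.11 ± 0.19 (adjusted p = 0.742). The change over time differed between the compounds for 6 genes by the compound by time interaction, 4 toward THZ1 and 2 toward YKL-5-124, where 57.6% of all genes were called, 26.6% toward THZ1 and 31.0% toward YKL-5-124. On the ribosomal protein reference none went toward THZ1 and 4 toward YKL-5-124, where the median of all genes moved by -2.34.

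Because the genes differ in length, their levels were compared with one another as CPM per kilobase of exon. In DMSO the order was CDKN2A (33.1 CPM per kb), CDKN1B (16.9), CDKN1A (13.8), CDKN2C (8.11), CDKN2D (6.53), CDKN1C (1.02) and CDKN2B (0.836). Shares of the summed level of the 7 genes need no scaling between libraries. CDKN2A made up 41.1% ± 2.05 of that sum in DMSO, 63.4% ± 2.35 after 4 h of THZ1 and 73.7% ± 0.902 after 24 h (SD, n = 3). With YKL-5-124 its share was 43.0% ± 1.30 after 4 h and 25.5% after 24 h. The CDKN1A share went the other way, from 17.0% in DMSO to 2.50% after 24 h of THZ1 and 33.4% after 24 h of YKL-5-124. Shares of 1 sum depend on each other, so the rise of CDKN2A lowers the other shares. The mean level of CDKN1A itself was 42.1 CPM in DMSO and 25.5 CPM after 24 h of THZ1. CDKN1B held 21.1% in DMSO and 3.38% after 4 h of THZ1.

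**Figure D3:**
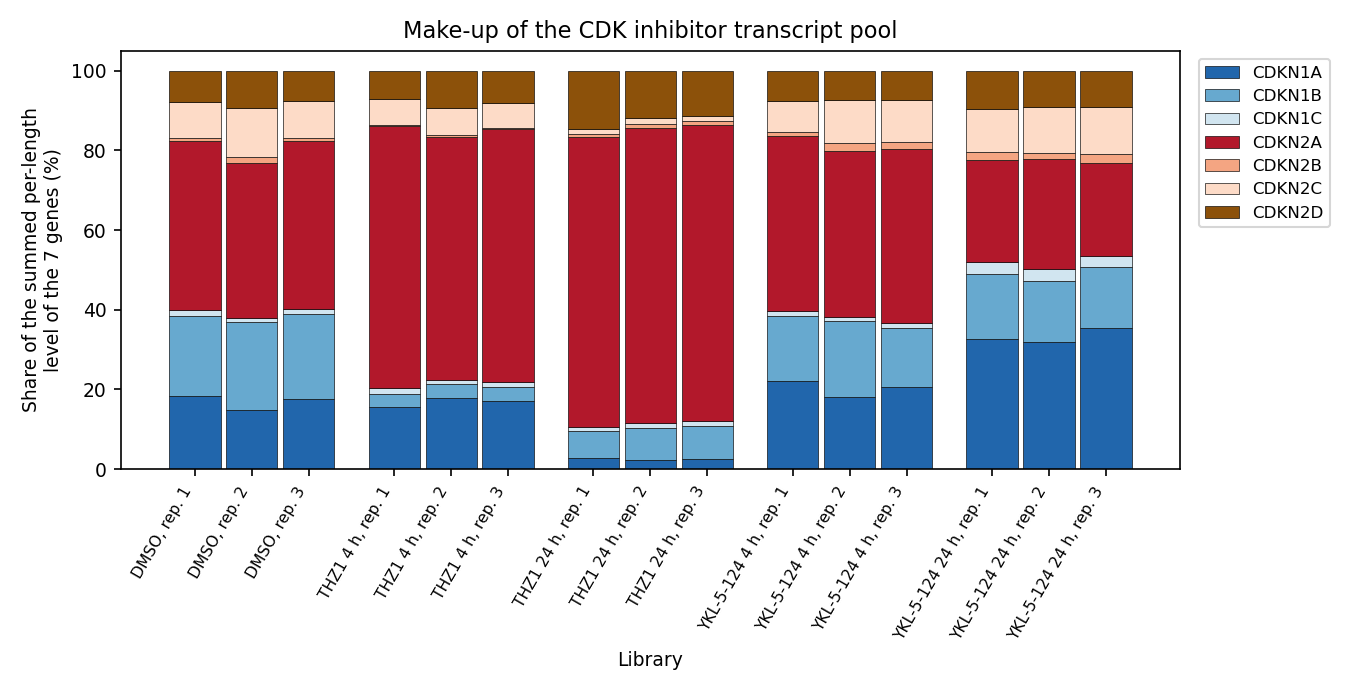
Share of each gene in the summed per-length level of the 7 genes, one bar per library, 3 libraries per group. CDKN2A took 73.7% of the sum after 24 h of THZ1 and 25.5% after 24 h of YKL-5-124, and CDKN1A took 2.50% and 33.4%.

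Ratios within a library restate much of this, since CDKN2A was the largest part of the INK4 sum. The INK4 sum over the CIP/KIP sum was 1.54 ± 0.0751 in DMSO, 7.80 ± 0.591 after 24 h of THZ1 and 0.926 ± 0.0598 after 24 h of YKL-5-124 (SD, n = 3). With no division by length, a setting added after the data were seen, these 3 were 2.0, 10.7 and 1.11, in the same order but with the last above 1. Without CDKN2A, whose counts do not separate p16 from ARF, the INK4 sum was 15.5, 49.9 and 34.4 CPM per kb in these groups. The CIP/KIP sums were 31.7, 37.6 and 79.1, so the INK4 sum without CDKN2A was the larger only after THZ1. The CDKN1B level over the CDKN1A level was 1.25 in DMSO and 0.201 after 4 h of THZ1. The INK4 sum over the sum of CDK4 and CDK6, the kinases that INK4 proteins bind, was 0.659 ± 0.0703 in DMSO and 0.655 and 0.690 after 4 h of THZ1 and YKL-5-124. It was 1.57 ± 0.0382 after 24 h of THZ1 and 1.39 ± 0.0221 after 24 h of YKL-5-124, and the 6 late libraries lay above the 9 others. With 3 libraries a group, an exact permutation test of such a ratio cannot give a p below 0.1.

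**Figure D4:**
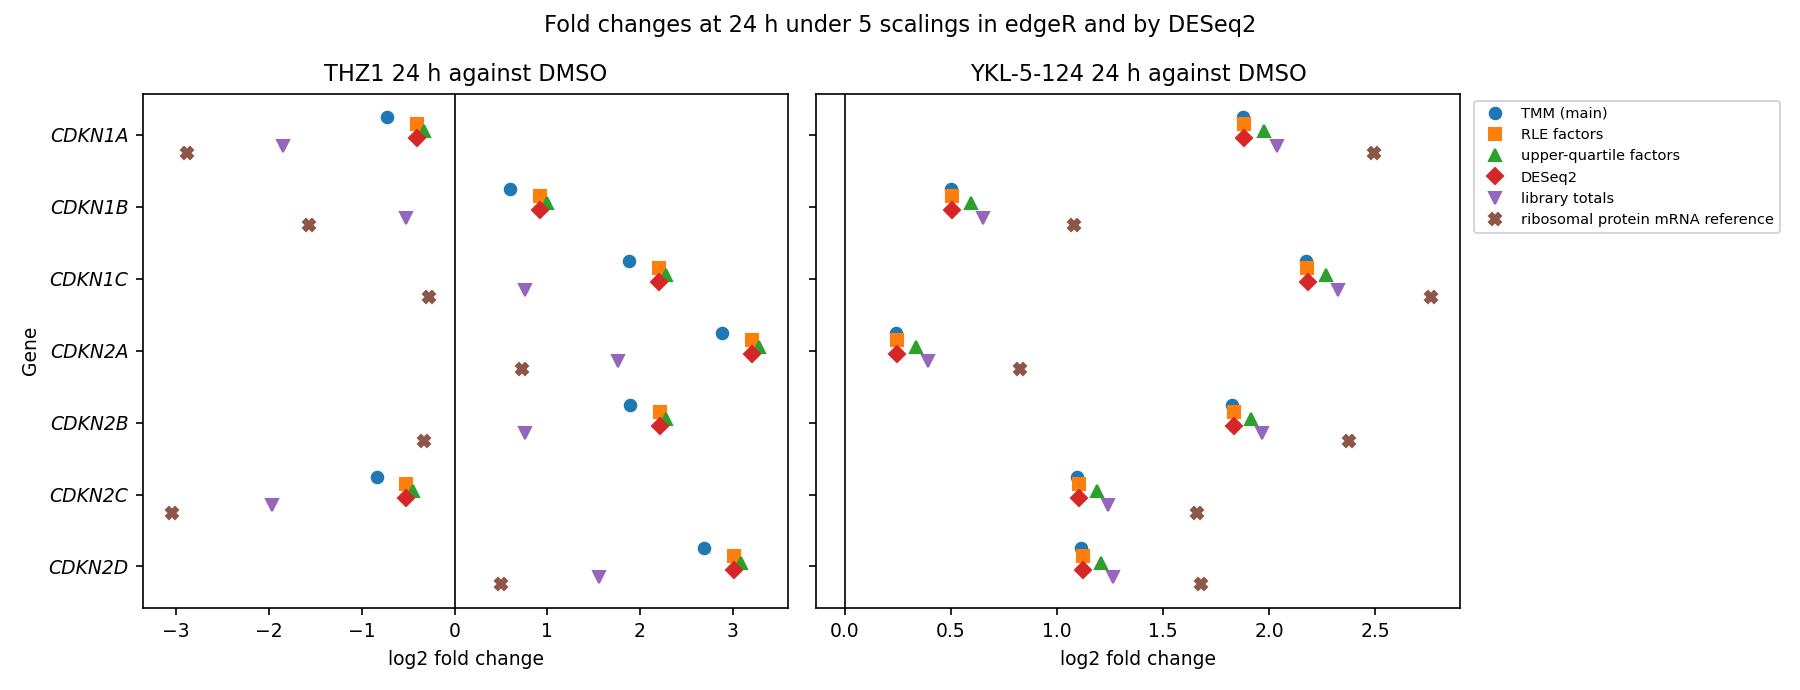
Difference of each gene from DMSO after 24 h of each compound, as log2 fold change under 5 scalings of the libraries in edgeR and by DESeq2. With YKL-5-124 all 7 differences were above 0 under each of these, but that of CDKN2A was called only on the ribosomal protein reference. With THZ1 CDKN1B, CDKN1C and CDKN2B crossed 0 on the ribosomal protein reference, and CDKN1B also on library totals.

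The sources used here state neither the number of cells nor the RNA per cell behind each library, so these data do not say which scaling is right. A change of scaling moves all genes by nearly the same amount, so the place of a gene among all genes is a second way to read it. In the comparison of THZ1 at 24 h with DMSO, 4.58% of genes had a higher difference than CDKN2D, 12.9% than CDKN2B, 13.1% than CDKN1C, 32.7% than CDKN1B, 57.0% than CDKN1A and 59.1% than CDKN2C. So CDKN1A and CDKN2C, which were below DMSO under TMM, stood near the middle of all genes there.

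Across the 15 libraries the 7 genes did not vary as one group. CDKN1A and CDKN2C were the most alike pair (Pearson r of log2(CPM + 0.5) 0.924), followed by CDKN2A and CDKN2D (0.888) and by CDKN1B and CDKN2B (0.881). CDKN2A and CDKN2C were the least alike (-0.558). Of the 9137 protein-coding genes at a mean of 5 CPM or more, those nearest to CDKN1A were ACOT1 (0.981), SNAPC1 (0.957) and SESN3 (0.954), and ACOT1 was also among the 3 nearest to CDKN2C (0.958). The nearest to CDKN1B was ZNF263 (0.989), to CDKN1C NEU1 (0.977), to CDKN2A DCTN3 (0.998), to CDKN2B NOCT (0.964), to CDKN2C UBALD2 (0.981) and to CDKN2D TUBB2A (0.996). These are descriptions over libraries that share groups, depth and scaling.

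Of 11 genes for the kinases and cyclins that these inhibitors act on, 3 fell after 4 h of THZ1 under TMM scaling, where 25.1% of all genes did. At 24 h 7 fell and 1 rose, where 44.0% of all genes fell and 32.3% rose, with a median difference of -1.81 against -0.37 over all genes. CCNA2 (-4.55 ± 0.15) and CCNB1 (-3.38 ± 0.12), cyclins of S phase and mitosis, fell most. CDK4 was higher by 1.46 ± 0.21 under TMM, but on the ribosomal protein reference its difference was -0.69. With 24 h of YKL-5-124, 5 of 11 fell and none rose, where 12.7% of all genes fell, among them CDK6 (-0.61 ± 0.14, adjusted p = 0.00520). On the ribosomal protein reference all 11 were lower after 24 h of THZ1, while after 24 h of YKL-5-124 none was lower and 2 were higher. That reference moved the median of all genes by -2.18 and 0.59 in these comparisons. After 4 h of YKL-5-124 edgeR called 0 of 11, where 0.519% of all genes were called, with 1 at an unadjusted p under 0.05 and 0 by DESeq2.

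Of 11 genes for the destruction of p27 and p21, 5 rose and 2 fell after 4 h of THZ1 and 5 rose and 5 fell after 24 h under TMM, but on the ribosomal protein reference none rose at either time and 3 and 10 fell. Of all genes, 16.9% rose and 25.1% fell at 4 h and 32.3% rose and 44.0% fell at 24 h under TMM, so the 5 of 11 that fell at 24 h are near the share over all genes. CUL1, the scaffold of the SCF ligase, fell by 3.27 on the log2 scale at 24 h, and DTL, the substrate receptor that marks p21 in S phase, fell by 2.84. SKP1 and CKS1B were higher at 24 h under TMM (1.89 and 1.79), but their differences on the ribosomal protein reference were -0.28 and -0.36. With YKL-5-124 3 of the 11 fell at 24 h and none rose, where 12.7% of all genes fell, with SKP2, the receptor that marks p27, at -0.86 ± 0.11 (adjusted p = 6.29e-05) and DTL at -0.71 ± 0.13 (adjusted p = 0.00126). SKP2 stood at 284 CPM in DMSO and 156 CPM in that group. On the ribosomal protein reference none of the 11 was lower there and 6 were higher, so neither SKP2 nor DTL kept its call. The median of all genes moved by 0.59 on that reference.

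Among 15 tested transcription factors known to act on these genes, 9 fell and 1 rose after 4 h of THZ1, where 25.1% of all genes fell and 16.9% rose. KLF4 and MYC, an activator and a repressor of CDKN1A, fell by 2.91 ± 0.17 (adjusted p = 4.78e-09) and 2.88 ± 0.19 (adjusted p = 1.39e-08) on the log2 scale. At 24 h of THZ1, 8 fell and 3 rose (14 and 1 on the ribosomal protein reference), where 44.0% of all genes fell and 32.3% rose, so these counts are not far from those over all genes. Among them were SP1, which binds GC boxes, at -3.70 ± 0.14 and ID1, an inhibitor of E proteins that restrains CDKN2A, at 3.15 ± 0.24. With 24 h of YKL-5-124, 3 rose and 1 fell (8.92% and 12.7% of all genes). On the ribosomal protein reference, where the median of all genes moved by 0.59, 5 rose and none fell. KLF4 rose by 0.90 ± 0.15 (adjusted p = 6.37e-04), TFAP4, a repressor of CDKN1A, fell by 1.02 ± 0.21 (adjusted p = 0.00308), and FOXO4 rose by 1.13 ± 0.29 (adjusted p = 0.0116), a call that ended without the third DMSO library (0.89). SMAD4, which carries TGF-beta signals to CDKN2B, did not pass the filter, at a group mean of 0.0421 CPM or less.

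Of 16 polycomb and chromatin regulators of the INK4 locus, 8 fell and none rose after 4 h of THZ1, where 25.1% of all genes fell and 16.9% rose. CBX8, a polycomb reader subunit, fell by 3.56 ± 0.19 on the log2 scale. At 24 h of THZ1 11 fell and 2 rose, where 44.0% of all genes fell and 32.3% rose, with a median of -0.88 against -0.37 over all genes. EED, a core subunit of PRC2, was at -2.89 ± 0.14 and KDM2B at -2.99 ± 0.23. KDM6B, the demethylase that removes the PRC2 mark, rose by 2.41 ± 0.43, and on the ribosomal protein reference this was 0.13 and not called. With 24 h of YKL-5-124 2 fell and 1 rose under TMM (12.7% and 8.92% of all genes). On the ribosomal protein reference 5 rose and none fell, with the median of all genes moved by 0.59.

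Of 23 p53 target genes other than CDKN1A, 3 rose and 8 fell after 4 h of THZ1, 7 rose and 14 fell after 24 h of THZ1, and 4 rose and 6 fell after 24 h of YKL-5-124. Over all genes 16.9% rose and 25.1% fell, 32.3% rose and 44.0% fell, and 8.92% rose and 12.7% fell in these 3 comparisons. The THZ1 counts that rose are close to those shares. In the YKL-5-124 24 h group, where CDKN1A rose, TP53INP1 rose by 1.92 ± 0.22 (adjusted p = 2.93e-05) while DDB2 (-1.05 ± 0.18, adjusted p = 7.46e-04) and AEN (-0.80 ± 0.13, adjusted p = 5.98e-04) fell. The median of the 23 was -0.11 there, against -0.04 over all genes. On the ribosomal protein reference 11 rose and 1, DDB2, fell in that group, and 1 rose and 21 fell with THZ1 at 24 h. That reference moved the median of all genes by 0.59 and -2.18 in these comparisons, so these counts move with all genes. With YKL-5-124 at 4 h, 2 of 23 were lower, where 0.463% of all genes were. PLK2 was at -1.34 ± 0.19 (adjusted p = 0.00577), a call that ended without the second library of that group (-1.26), and it was at -3.92 ± 0.21 after 4 h of THZ1.

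Of 11 genes of the RB and E2F family, which act downstream of these inhibitors, 8 fell and 2 rose after 4 h of THZ1, 9 fell and 2 rose after 24 h of THZ1, and 6 fell and 1 rose after 24 h of YKL-5-124. Over all genes 25.1%, 44.0% and 12.7% fell and 16.9%, 32.3% and 8.92% rose in these 3 comparisons. E2F6 fell by 2.53 and 3.45 on the log2 scale at the 2 THZ1 times, and E2F8 fell by 1.07 ± 0.24 after 24 h of YKL-5-124 (adjusted p = 0.00471). On the ribosomal protein reference all 11 were lower after 24 h of THZ1, and after 24 h of YKL-5-124 none was lower and 3 were higher. All genes moved the same ways on it, by -2.18 and 0.59 at the median. RB1 and RBL2 were called higher after 24 h of THZ1 under TMM (0.61 and 0.65), but lower on library totals (-0.52 and -0.48).

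Among the neighbours of CDKN2A and CDKN2B on chromosome 9p21, 4 of 6 passed the filter. 2 fell at each time of THZ1 (25.1% and 44.0% of all genes) and 1 after 24 h of YKL-5-124 (12.7%) under TMM. For the latter the ribosomal protein reference, which moved the median of all genes by 0.59, gave 3 higher and none lower. KLHL9 fell by 2.43 ± 0.20 (adjusted p = 1.63e-07) after 4 h of THZ1 and by 2.68 ± 0.21 after 24 h. MTAP, the gene next to CDKN2A that is often lost with it in cancer, had 324 to 1182 counts per library. It was lower by 0.49 ± 0.12 on the log2 scale after 24 h of YKL-5-124 (adjusted p = 0.00747), a call that ended on library totals (-0.34) and with the ribosomal protein reference (0.11), while CDKN2B rose.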

How the data were processed

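The authors deposited 1 table of raw read counts per gene, unscaled, with symbols, positions and exonic lengths; GRCh38, featureCounts 1.5.0-p3, STAR 2.6.1d and DESeq2 1.24.0 are named in the submitters' processing notes. No strand setting, and no rule for reads with several matches, is stated in the sources used here. Groups came from the labels. Genes passing filterByExpr (14461 of 58676, minimum count 10) were fitted over all 15 libraries with edgeR 4.0.16 (R 4.3.3), TMM factors and its quasi-likelihood test, adjusted by Benjamini-Hochberg over all genes tested, at a threshold of 0.05. The method was tried on simulated data, in fits of DMSO with a treated group. It recovered 4.48% to 14.9% of 1.5-fold changes, 50.75% to 68.7% of 2-fold changes and 93.9% to 97.0% of 4-fold changes. Each fold was set in only 66 or 67 of the 14461 genes, far fewer than were called with THZ1 here. These shares hold for that setting and are not the sensitivity of the reported fit over 15 libraries. A difference that did not pass is still not evidence of no change.

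Alternatives were RLE and upper-quartile factors, library totals, ribosomal protein mRNAs as reference, DESeq2 1.42.0, no filter and only the groups compared. Others were a transcript length slope centred within groups, a replicate block and leaving out each library. Shares and ratios with no division by length were added after the data were seen. CPM used TMM-scaled totals. No 2 replicates agreed within sampling noise (lowest chi-square per degree of freedom 3.988), so none was merged.

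The 7 genes and the 7 lists were chosen with earlier results of these data known. From each list the rule named, per comparison with DMSO, up to 2 called genes in each direction with the largest log2 difference at a mean of at least 1 CPM; some of these are not reported here. It also named the 3 genes most correlated with each of the 7. Promoters came from RefSeq, for 6 of 7 genes.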

Additional observations from a re-analysis of the deposited data

Results flagged for a closer look

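The change from 4 h to 24 h differed between the compounds for 6 of the 7 genes, by the compound by time interaction of the edgeR fit, where 57.6% of all genes tested were called. The interaction is the THZ1 change minus the YKL-5-124 change on the log2 scale, with 3 libraries in each of the 4 groups. CDKN1B gave 2.52 ± 0.21 (adjusted p = 9.63e-08), from changes of 3.29 with THZ1 and 0.77 with YKL-5-124. CDKN2B gave 2.29 ± 0.33 (adjusted p = 2.61e-05), and for both genes the THZ1 libraries started far below the YKL-5-124 libraries at 4 h. CDKN2A gave 2.20 ± 0.27 (adjusted p = 5.13e-06) and CDKN2D gave 1.59 ± 0.25 (adjusted p = 6.98e-05), with 4 h levels that were not called different. CDKN1A gave -2.19 ± 0.30 (adjusted p = 1.48e-05) and CDKN2C gave -1.27 ± 0.20 (adjusted p = 5.46e-05), both rising only with YKL-5-124. CDKN1C gave -0.34 ± 0.37 (adjusted p = 0.450). With the ribosomal protein reference the CDKN1B interaction dropped to 0.21 and was not called (adjusted p = 0.283), those of CDKN2A, CDKN2B and CDKN2D turned, as given under the processing, and that of CDKN1C was called (-2.61).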

How the results depend on the processing

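Without any single library, 7 of 7 genes stayed called for THZ1 24 h against DMSO, and the counts ranged from 3 to 4 for THZ1 4 h, 5 to 6 for YKL-5-124 24 h and stayed at 0 for YKL-5-124 4 h. Between the compounds they stayed at 3 at 4 h and 4 at 24 h, over time they were 5 to 6 with THZ1 and 6 with YKL-5-124, and the interaction kept 6. For YKL-5-124 4 h against DMSO, DESeq2 and the length slope covariate each called 1 (0 by the reported fit). For THZ1 against YKL-5-124 at 4 h, 5 were called with no filter and 5 with the length slope covariate.

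Library totals reversed, after 24 h of THZ1, CDKN1B (-0.52), FOXO4 (-0.22), PHC1 (-0.15), RBL2 (-0.48) and RB1 (-0.52), and between the compounds at 24 h CDKN1B (-1.17) and CDKN2B (-1.21). The ribosomal protein reference reversed, after 24 h of THZ1, CDKN1B (-1.57), CDKN1C (-0.27), CDKN2B (-0.33), CDK4 (-0.69), SKP1 (-0.28), CKS1B (-0.36), FOXO4 (-1.33), PHC1 (-1.21), SPATA18 (-0.62), RBL2 (-1.55) and RB1 (-1.58). After 4 h of THZ1 it reversed DDB1 (-0.091), and after 24 h of YKL-5-124 EED (0.23), RNF2 (0.19) and MTAP (0.11). Between the compounds at 24 h it reversed CDKN1B (-2.65), CDKN2A (-0.10), CDKN2B (-2.70) and CDKN2D (-1.18), and in the interaction CDKN2A (-0.10), CDKN2B (-0.038) and CDKN2D (-0.75). Each scaling moved all genes by nearly the same amount. Why the references differ was not tested.

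The labels do not say what a replicate number shares, so the libraries were not treated as paired. Correlations of deviations were 0.2294 to 0.5325 among libraries numbered 1, all above 0, -0.4048 to 0.5308 among those numbered 2 and -0.4695 to 0.327 among those numbered 3. Among groups compared directly, THZ1 4 h with YKL-5-124 4 h and THZ1 4 h with THZ1 24 h were above 0 for all 3 numbers. Their lowest values were 0.062 and 0.089. The other pairs compared directly each fell below 0 for at least 1 number. THZ1 24 h with YKL-5-124 4 h, which were not compared directly, stood at 0.107 or above for all 3 numbers. With replicate number as a block, 5 of 7 genes were called for THZ1 against YKL-5-124 at 4 h.

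Among all genes tested, the number called for YKL-5-124 4 h against DMSO was 75, against 377 with DESeq2, 190 with no filter, 15 in a fit of only the groups compared, 952 with the length slope covariate, 140 with replicate number as a block, 33 without DMSO library 1, 23 without DMSO library 3, and 8 and 26 without the second and the third YKL-5-124 4 h library. For YKL-5-124 24 h it was 3129, against 5324 on the ribosomal protein reference, 6008 with the slope covariate, and 2071 and 1932 without DMSO libraries 1 and 3. Between the YKL-5-124 times it was 3049, against 6907 and 5971 with that reference and covariate, and between the compounds at 4 h it was 4821, against 7666 with the covariate. Of the calls against DMSO, those that were higher made up 40.2% (THZ1 4 h), 42.3% (THZ1 24 h) and 41.2% (YKL-5-124 24 h), but 11.2%, 19.5% and 63.8% on library totals, 0.523%, 4.67% and 96.3% on the ribosomal protein reference and, for YKL-5-124 24 h, 56.0% with upper-quartile factors. For the compounds at 4 h and at 24 h, the THZ1 times, the YKL-5-124 times and the interaction, the higher share was 34.2%, 41.9%, 46.8%, 43.7% and 46.1%, but 4.56%, 16.8%, 21.9%, 68.6% and 16.4% on library totals and 0.580%, 2.09%, 6.79%, 98.1% and 1.70% on the ribosomal protein reference. For the compounds at 4 h it was also 46.7% with RLE factors and 47.8% with DESeq2, and upper-quartile factors gave 59.5% for the THZ1 times and 57.1% for the interaction. Of 840 list counts under the alternatives, 145 moved by over 1.5 times, 121 of them counts of 5 or fewer genes.

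With no division by length, 36 of 45 shares and ratios moved by more than 1 SD. Low counts limit CDKN2B and CDKN1C most, with 17 counts as the lowest.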
